A study of Mus musculus with 15 samples.

Results

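Map3k14, Trim30a and Lcp2 are genes of immune signalling that were measured in AT2 cells, the alveolar epithelial type II cells that make surfactant. They were selected by symbol from 323 measured gene symbols, with their levels in all 15 arrays already known. Each symbol had 1 row, and all 3 genes passed the filter on low values that left 173 genes for the fit. Because the genes were chosen with these levels known, the levels and the differences between groups are given as a description. The fit over all 173 genes included these 3, but nothing is read from their calls.

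Total RNA of sorted mouse AT2 cells was hybridised to Affymetrix Mouse Gene 2.1 ST arrays, 5 per group, from animals 8 to 12 weeks old. Control cells came from C57BL/6 mice. The resolving cells were taken on day 7 after Escherichia coli lipopolysaccharide (LPS, a bacterial cell wall component that inflames the lung) had been put into the trachea at 3 mg/kg. Resolving cells with regulatory T cells (Tregs) present came from Foxp3EGFP mice, whose Tregs carry a green fluorescent protein. Resolving cells with Tregs depleted came from Foxp3DTR mice, whose Tregs express the human diphtheria toxin receptor and die when the toxin is given. Both alleles are on a C57BL/6 background. The labels do not state whether the Foxp3EGFP mice also received toxin, and the wording of the treatment leaves unclear whether control mice received LPS too. Strain and group cannot be told apart. Cells bearing CD31 or CD45, the endothelial and leukocyte surface markers, were depleted before the sort, which took CD326+ MHCII+ CD104- CD24- T1a- cells. For Treg-depleted arrays 2, 3 and 4 a further label line names splenic Tregs, and for all other arrays lung Tregs, although every source label names AT2 cells.

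The deposited tables hold measurements only in their first rows, 1.03% of 31351, and everything below rests on those. Array medians over the measured rows lay between 2.25 and 2.39 on the log2 scale, and values near them are not shown to be above background. None of the 9 AT2 markers looked for is among the measured rows, so the cell type could not be checked. The same holds for markers of T cells, B cells, macrophages, neutrophils, endothelium, fibroblasts, alveolar type I and airway cells.

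The 3 genes act at different steps of immune signalling. Map3k14 encodes the NF-kB-inducing kinase NIK, which activates IKK-alpha and so starts the processing of p100 to p52 in the non-canonical NF-kB pathway, downstream of receptors such as the lymphotoxin-beta receptor, CD40 and the BAFF receptor. Trim30a encodes a mouse protein of the tripartite motif family that is induced by interferon and dampens NF-kB activation downstream of Toll-like receptors. The receptor for LPS is a Toll-like receptor. Lcp2 encodes SLP-76, an adaptor without enzyme activity that links antigen, Fc and integrin receptors to calcium signalling in T cells, myeloid cells, mast cells and platelets. It is known as a gene of blood cells and not of epithelium.

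The kinase gene Map3k14 was measured by the row for transcript AF143094, array transcript cluster 17270453. Its levels in the control arrays 1 to 5 were 4.0, 3.88, 3.88, 4.46 and 3.95 on the log2 scale. With Tregs present they were 4.04, 4.61, 3.71, 3.96 and 4.04. With Tregs depleted they were 3.39, 4.07, 4.22, 3.82 and 4.36. All 15 values stood above their array's median, and the 3 groups overlapped throughout, with the highest value in Treg-present 2 and the lowest in Treg-depleted 1.

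Group means of Map3k14 were 4.07 ± 0.33 with Tregs present, 4.03 ± 0.24 in control and 3.97 ± 0.38 with Tregs depleted (SD, n = 5 each). Neighbouring groups in this order stood 0.04 and 0.06 apart on the log2 scale, well within their spread. The difference between both resolving groups was -0.10 (SE 0.23, depleted minus present). In the control group the 4 arrays other than control 4 lay close together, at 3.93 ± 0.06 (SD), and control 4 was 1.45-fold above their mean. Groups accounted for 1.92% of the variance of Map3k14 over the 15 arrays, where the median over the 173 genes was 20.3%. The order of the groups depended on the scaling. After quantile normalization of the measured rows the means were 4.25 with Tregs present, 3.97 with Tregs depleted and 3.91 in control. Tregs present then stood 0.34 above control, where the SDs of these groups were 0.30 and 0.32.

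The adaptor gene Lcp2 was measured by the row for transcript AK088552, transcript cluster 17248380. Its levels in the control arrays 1 to 5 were 3.60, 2.78, 3.41, 6.61 and 3.81 on the log2 scale. With Tregs present they were 2.85, 3.80, 3.58, 4.33 and 3.58. With Tregs depleted they were 2.75, 3.37, 3.64, 3.50 and 7.07. Control 4 and Treg-depleted 5 stood far above all other arrays, and the ranges of the remaining 13 values overlapped between the 3 groups, with the highest of them in Treg-present 4.

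In linear terms Lcp2 in control 4 was 9.27-fold above the mean of the other 4 controls, which was 3.40 ± 0.45 (SD) on the log2 scale. In Treg-depleted 5 it was 13.5-fold above the mean of the other 4 arrays of that group, 3.32 ± 0.39 (SD). One high array thus stood in the control group and one among the resolving groups. Lcp2 had the widest range of all 173 genes over the 15 arrays, 4.32 log2 units, and the largest SD, 1.26. Over the 13 other arrays its SD was 0.45, which is rank 33 of 173. Groups accounted for 2.71% of its variance.

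Group means of Lcp2 were 4.07 ± 1.71 with Tregs depleted, 4.04 ± 1.49 in control and 3.63 ± 0.53 with Tregs present (SD, n = 5 each). The upper neighbours in this order differed by 0.03 (SE 1.01) and the lower ones by 0.41 (SE 0.71), both smaller than the spread. The order itself depended on the 2 high arrays. Without them the Treg-present group had the highest mean, 0.23 (SE 0.33) above control and 0.31 (SE 0.31) above the Treg-depleted group. The Treg-present group kept its highest array, so leaving out these arrays could only raise its mean relative to the other groups. The medians of the 3 groups, 3.60 in control, 3.58 with Tregs present and 3.50 with Tregs depleted, lay within 0.10 of each other.

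**Figure D1:**
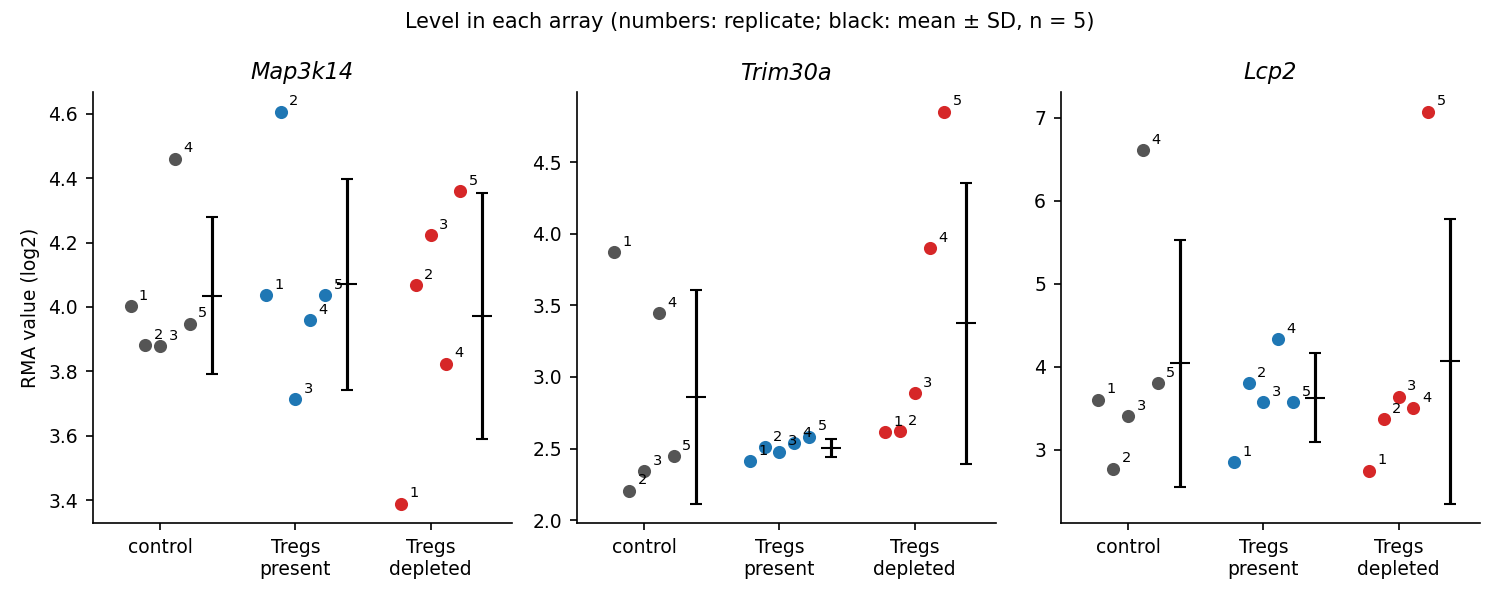
RMA value (log2, vertical axis, its own range in each panel) of Map3k14, Trim30a and Lcp2 in each of the 15 arrays, by group. Points are arrays numbered by replicate, and black marks give the group mean ± SD (n = 5). Control 4 (6.61) and Treg-depleted 5 (7.07) stand out for Lcp2, and Trim30a is tightly grouped only with Tregs present. Its values in that group lie near the array medians and are not shown to be above background.

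The interferon-induced gene Trim30a was measured by the row for transcript AK089726, transcript cluster 17494394. Its levels in the control arrays 1 to 5 were 3.87, 2.21, 2.34, 3.44 and 2.45 on the log2 scale. With Tregs present they were 2.41, 2.51, 2.48, 2.54 and 2.58. With Tregs depleted they were 2.61, 2.62, 2.89, 3.90 and 4.85. The values of 4 arrays, controls 1 and 4 and Treg-depleted 4 and 5, were 3.44 or more, and the other 11 lay between 2.21 and 2.89, not far from the array medians.

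Group means of Trim30a were 3.37 ± 0.98 with Tregs depleted, 2.86 ± 0.75 in control and 2.50 ± 0.06 with Tregs present (SD, n = 5 each). Control lay 0.51 (SE 0.55) below the Treg-depleted group and 0.36 (SE 0.34) above the Treg-present group, in both cases less than its own SD. The latter difference was 0.11 without control 1, and between the group medians control lay 0.06 below. The former was 0.14 without Treg-depleted 5. The difference between both resolving groups was 0.87 (SE 0.44), or 1.83-fold, and was the largest of the 173 genes in that comparison. Trim30a also varied widely over the 15 arrays, with an SD of 0.76, rank 6 of 173. Groups accounted for 23.9% of its variance, rank 75, where the median over the 173 genes was 20.3%. Every Treg-depleted array exceeded every Treg-present array, but by only 0.03 at the closest point. After quantile normalization of the measured rows, and after centring each array on its median, these groups overlapped, while the mean difference stayed at 0.86 and 0.87. It was 0.50 without Treg-depleted 5 and 0.38 between the group medians. Control arrays ran from 2.21 to 3.87, a range that held all 5 Treg-present arrays, and 2 Treg-depleted arrays (4 and 5) stood above it.

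The promoter of Trim30a is shown because the gene is grouped here by its induction by interferon. RefSeq's table for GRCm38.p6 holds 4 promoter windows for the 3 genes, each from 250 bases before to 50 after a gene start: 2 for Trim30a and 1 for each of the others. The core of the interferon-stimulated response element, GAAANNGAAA searched on both strands, was found in both Trim30a windows and in 3.44% of all 32851 windows. In the first it lies on the opposite strand at positions -36 to -27 from the gene start. The 30 bases around it, at chr7:104465210-104465239 on the minus strand, are printed 5′ to 3′ along the gene with the match in capitals.
Trim30a: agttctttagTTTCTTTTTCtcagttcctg
In the second Trim30a window the match lies at positions 3 to 12. The match and the printed bases after it have the same letters in both windows, so these are not independent finds. The Lcp2 window holds the box GAGGAA, bound by PU.1-type factors of blood cells, on the opposite strand at positions 5 to 10, as do 28.3% of all windows. The NF-kB consensus (8.46% of windows), TTCNNNGAA (8.30%), CCGGAAGT (3.89%) and TATAAA (13.6%), also searched on both strands, were in none of the 4 windows. The motifs were chosen after the promoters had been seen, so the shares over all windows are no test. A match describes these letters and is not evidence of binding.

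All 173 genes were fitted together with limma, and a gene counted as called when its Benjamini-Hochberg adjusted p lay under 0.05. For Tregs present against control 0 of the 3 genes were called, where the share over all genes was 16.2% (28 of 173). For Tregs depleted against control the numbers were 0 of 3 and 11.0% (19 of 173). Between the resolving groups they were 0 of 3 and 0% (0 of 173). An ordinary linear model without moderation also called 0 of the 3 genes in each comparison, with 14.5%, 9.25% and 0% of all genes.

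At an unadjusted p under 0.05 the limma fit counted 0 of 3 against control in both comparisons, with 30.6% and 21.4% of all genes. Between the resolving groups it counted 1 of 3, Trim30a, with 8.09% of all genes. Groups did not overlap for 1 of the 3 genes in that comparison, again Trim30a, and for 1.73% of all genes. For both comparisons with control they overlapped for each of the 3 genes, and did not overlap for 11.0% and 10.4% of all genes. These comparisons were known when the genes were chosen and share arrays, so nothing is read from the counts. The median difference over the 173 genes was -0.07 for Tregs present against control, -0.04 for Tregs depleted against control and 0.02 between the resolving groups.

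**Figure D2:**
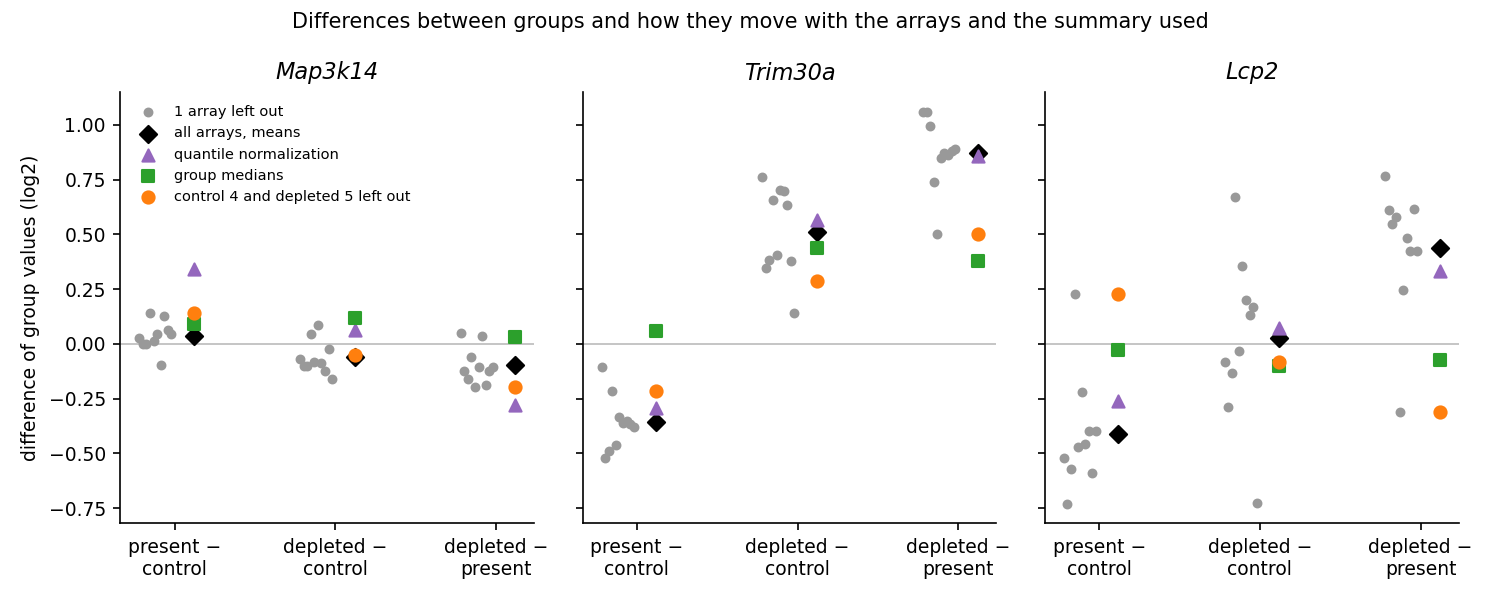
Differences between groups (log2, vertical axis) in the 3 comparisons for each gene. Black diamonds are differences of means over all arrays, grey points leave out 1 array, and the other symbols use quantile normalization, group medians, or neither control 4 nor Treg-depleted 5. Trim30a between the resolving groups runs from 0.38 to 1.06, while Lcp2 crosses 0 in all 3 comparisons. The Trim30a values of the resolving groups do not overlap, so leaving out arrays or using medians could not change that sign.

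In the 2 arrays with high Lcp2, Trim30a and Map3k14 were also above the mean of the other 4 arrays of the group. The arrays were picked by Lcp2, so its own excess was fixed in advance. How many of the other tested genes were above that mean in both arrays is not given here. In Treg-depleted 5, Trim30a was 3.60-fold above that mean and the highest of all 15 arrays, and Map3k14 was 1.40-fold above it. In control 4, Trim30a was 1.66-fold above it and Map3k14 1.45-fold. The excess of Trim30a in control 4, 0.73 log2 units, was less than the SD of the other 4 controls, 0.78. That of Map3k14 in Treg-depleted 5 was 0.48, where the SD of the other 4 was 0.36. The remaining excesses were larger against this SD: 1.85 against 0.61 for Trim30a in Treg-depleted 5, and 0.53 against 0.06 for Map3k14 in control 4. Outside the 2 arrays with high Lcp2 the genes parted. Control 1 had Trim30a at 3.87 but Lcp2 at 3.60, and Treg-depleted 4 had Trim30a at 3.90 but Lcp2 at 3.50. Map3k14 was highest, at 4.61, in Treg-present 2, where Trim30a stood at 2.51.

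Over all 15 arrays Lcp2 had a Pearson correlation of 0.687 (Spearman 0.416) with Trim30a and of 0.604 (Spearman 0.568) with Map3k14. All arrays were normalized together, and the first value rests on the 2 arrays with high Lcp2: without them it was 0.179 over 13 arrays, and that with Map3k14 was 0.432. Between Map3k14 and Trim30a it was 0.302 over 15 arrays and -0.032 over 13. These correlations are descriptions of genes chosen with their values in these arrays known.

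**Figure D3:**
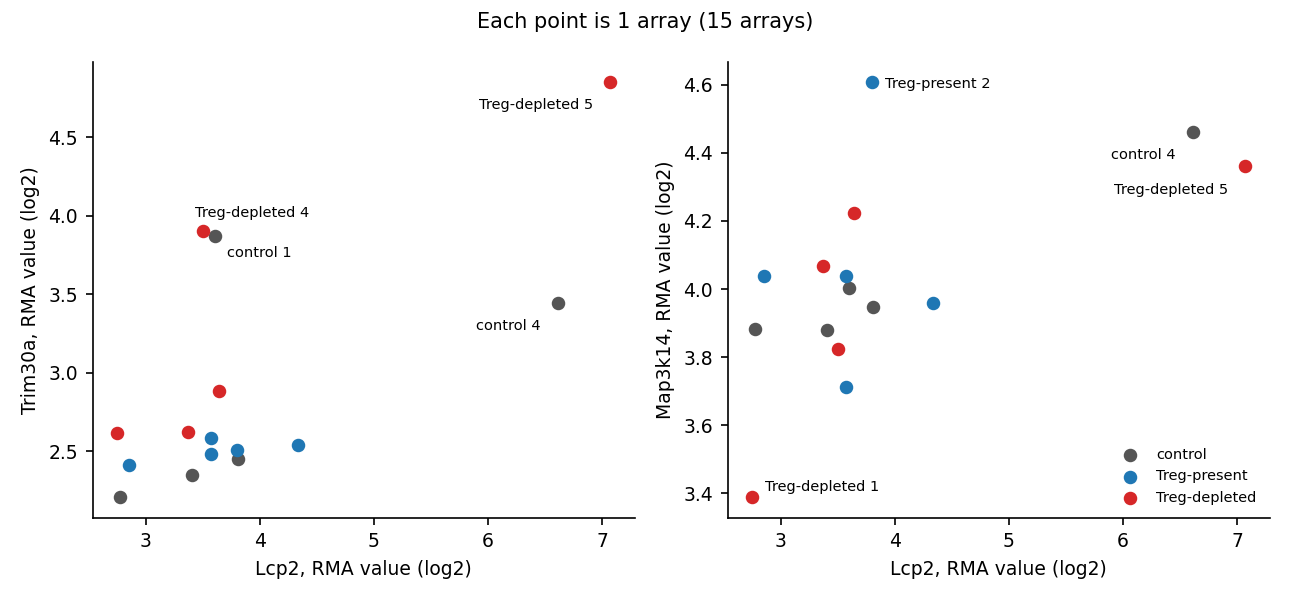
Lcp2 (horizontal axis) against Trim30a (left) and Map3k14 (right), all as RMA values (log2), with 1 point per array coloured by group. Control 4 and Treg-depleted 5 lie far to the right, and control 1 and Treg-depleted 4 have high Trim30a without high Lcp2.

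Likeness was measured by the Pearson correlation over the 15 arrays with the 172 other genes tested, and the 5 highest are named for each gene. Lcp2 was most like the predicted gene Gm19279 (0.769), then Trim30a, the expressed sequence BE692007 (0.650), Map3k14 and Dleu2 (0.587), a long non-coding RNA gene. Gm19279 was highest in Treg-depleted 5 and ranked 3 in control 4, over a range of 3.00 to 4.56 on the log2 scale. BE692007 was the only other gene, beside Lcp2, with both of these arrays above the other 13, but it stayed between 1.98 and 2.59, near the array medians. Without the 2 arrays its correlation with Lcp2 was -0.065, that of Gm19279 was 0.379 and that of Dleu2 was 0.539.

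Trim30a was most like Lcp2, then the clone 1700018A04Rik (0.578), Gm19279 (0.575), BE692007 (0.567) and Dleu2 (0.532). Without the 2 arrays these values lay between 0.097 and 0.448, the highest for 1700018A04Rik. The levels of that clone stayed between 2.23 and 2.73, near the array medians. Map3k14 was most like Gm19279 (0.672), Gm19409 (0.645), Lcp2, Gm10325 (0.537) and Gm15972 (0.511). Its likeness to Gm15972 and Gm10325 was higher without the 2 arrays, at 0.722 and 0.662. These genes too stayed near the array medians, between 2.05 and 2.78 and between 2.11 and 2.51. The median correlation with all 172 other genes was -0.135 for Lcp2, -0.085 for Map3k14 and -0.075 for Trim30a.

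**Figure D4:**
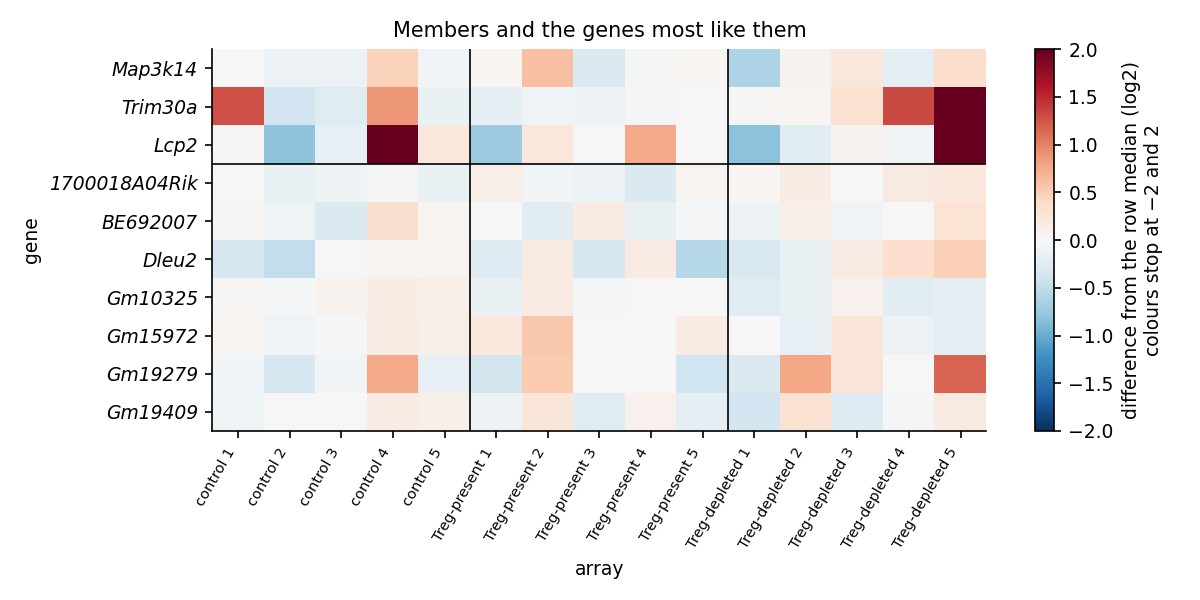
Difference of each array (columns, by group) from the gene's median over 15 arrays (log2, colour, cut at -2 and 2) for the 3 genes (top) and the 7 other genes most like them. The strongest colours are those of Lcp2 in control 4 and Treg-depleted 5 and of Trim30a in Treg-depleted 5.

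Of the 9 leukocyte genes looked for, 4 were measured: Lcp2 and 3 others. Nckap1l, a subunit of an actin regulator of blood cells, lay between 2.09 and 2.64, Slamf6, a lymphocyte surface receptor, between 1.99 and 2.66, and Rcsd1, an actin capping-related gene, between 2.03 and 2.67, all at the level of the array medians. Rcsd1 was highest in control 4 but ranked 9 of 15 in Treg-depleted 5. It was above the array median in 4 arrays and did not pass the filter on low values. The mean of these 3 genes was 2.07 to 2.49 in control, 2.21 to 2.51 with Tregs present and 2.29 to 2.37 with Tregs depleted. Control 4 had a mean of 2.49, rank 3 of the 15 arrays, and Treg-depleted 5 had 2.30, rank 7. At levels this near the array medians these ranks are no measure of leukocyte content. Ptprc, which encodes CD45, is not analysed here. The part of leftover leukocytes in the levels of Lcp2 was not tested, and more such cells cannot be told apart from more Lcp2 RNA per cell.

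Some other measures of the 2 arrays with high Lcp2 were within the range of all arrays. Control 4 was the highest array for 8 of the 173 genes and the lowest for 14, and Treg-depleted 5 for 9 and 14. Over all 15 arrays these numbers ran from 5 to 29 and from 5 to 19. Besides Lcp2 and BE692007, which were above, 4 predicted or clone genes (Gm20157, Gm19281, Gm19313 and C820005J03Rik) had both arrays below the other 13. Correlations with the other arrays of the group reached at most 0.967 for control 4 and 0.969 for Treg-depleted 5. These were the lowest such maxima of the 15 arrays, where those of the other 13 were 0.976 to 0.984. They were taken over all measured rows, including Lcp2, by which the 2 arrays were picked. They are thus not separate from its levels, and their values without Lcp2 were not computed. The part of such array differences in the levels of the 3 genes was not tested.

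**Figure D5:**
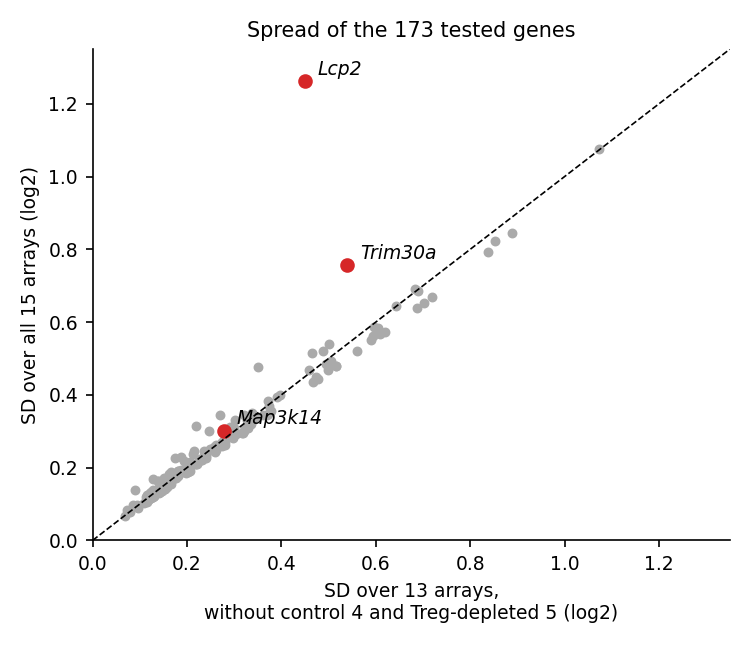
SD over all 15 arrays (vertical axis) against SD over the 13 arrays without control 4 and Treg-depleted 5 (horizontal axis), both in log2 units, for the 173 tested genes. On the dashed line the 2 are equal. Lcp2 stands farthest above it, at 1.26 against 0.45, Trim30a lies at 0.76 against 0.54, and Map3k14 is close to it. The 2 arrays were picked by their Lcp2 levels, so its fall was fixed in advance.

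The other genes of these pathways were looked for by lists. The list for non-canonical NF-kB signalling holds 17 genes, of which Map3k14 was the only one measured. Trim30a was the only one of 28 for the type I interferon response and of 12 for its TRIM relatives, and Lcp2 the only one of 33 for signalling with SLP-76. None of the 16 genes of canonical NF-kB signalling was measured. Whether partners or targets of the 3 genes moved with them is therefore not analysed here.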

How the data were processed

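The authors deposited log2 values in 2 tables, and per the submitters' processing notes they used Affymetrix Expression Console, RMA (which subtracts background, normalizes arrays together and summarises probes) and Partek. Neither versions nor a genome build are stated in the sources used here. The log2 scale was read from the measured values, which span 1.20 to 10.02. The later 31027 rows lie on a straight line through row number and were left out. The tables differ by at most 5e-09.

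A symbol was represented by its row with the highest mean, and genes were kept when above the array's median over measured rows in at least 5 arrays. The limma 3.58.1 fit (eBayes with trend, R 4.3.3) used all 15 arrays and was tested on simulated data. No pairing of replicate numbers was assumed. Differences of the 3 genes are differences of means with unmoderated SE. Like genes were the 5 with the highest Pearson correlation over 15 arrays. Members, lists, rules and alternatives were chosen with earlier results of these data known, and motifs after the promoters had been seen. The labels do not tie each array to a separate mouse, so errors measure the spread between arrays, whose number limits the precision.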

Additional observations from a re-analysis of the deposited data

Results flagged for a closer look

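In 3 of 9 sets of 5 arrays (3 genes in 3 groups) 1 array stood far from the other 4 by Dixon's criterion, which chance meets in about 1 of 20 sets, or 0.45 of 9. The genes were chosen with these values known, so the number is no test. Control 4 had Lcp2 at 6.61, while the remaining controls spanned 2.78 to 3.81. Treg-depleted 5 had Lcp2 at 7.07, while the remaining arrays of its group spanned 2.75 to 3.64. Control 4 also had Map3k14 at 4.46, while the remaining controls lay close together, from 3.88 to 4.0. Trim30a met the criterion in no group.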

How the results depend on the processing

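The 9 differences of the 3 genes were recomputed 153 times, 90 of them with 1 array left out. The total includes settings that could not move these differences. They are the other deposited table, the mean over rows of a symbol (each gene had 1 row) and the replicate block. Sign changed in 23 values, and 2 differences kept their sign throughout: those of Trim30a with Tregs depleted against control (0.14 to 0.76 with 1 array left out) and against Tregs present (0.50 to 1.06). The Trim30a values of the resolving groups did not overlap, so leaving out arrays or using group medians could not change the sign of the latter. For Trim30a with Tregs present against control the range was -0.52 to -0.11, the smallest without control 1, and the difference of group medians was 0.06. For Lcp2 between the resolving groups the range with 1 array left out was -0.31 to 0.77, with the lowest value without Treg-depleted 5, and against control it was -0.73 to 0.23 with Tregs present and -0.72 to 0.67 with Tregs depleted. For Map3k14 the ranges were -0.10 to 0.14, -0.16 to 0.08 and -0.19 to 0.05. After quantile normalization Map3k14 with Tregs present was 0.34 above control, more than 1 SD from the reported 0.04, and the cause was not tested.

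Counts of called genes were 28, 19 and 0, and 19 to 31, 15 to 24 and 0 with 1 array left out. Adding a replicate block by array number gave 25, 20 and 0. Residuals of same-numbered arrays correlated over 0.1 in 3 of 15 pairs, and those of differently numbered arrays in 17 of 60. The numbers were therefore not taken to pair arrays. In the alternative fits that left out no single array, counts were 25 to 36, 15 to 21 and 0. In none of 25 alternative fits was any of the 3 genes called. Between the resolving groups no gene at all was called in any fit. The fits share arrays and the 3 genes were chosen with these values known, so this is no test. After quantile normalization calls with Tregs present were 14 up and 13 down, against 5 up and 23 down as reported. Values of Trim30a near the array medians limit what its lower levels show.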

Other observations

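Among the measured rows, 135 held the same value to all printed digits in 2 or more arrays, and in 117 of these the repeated value was the row's median over the 15 arrays. Lcp2 was 3.58 in both Treg-present 3 and Treg-present 5, which is its row median. Map3k14 was 4.04 in both Treg-present 1 and Treg-present 5, where the row median was 4.0.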
